A study of Rattus norvegicus with 2 samples.

Results

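The genes described here are 8 protein-coding targets of the competing endogenous RNA network of this osteoporosis study: Cd44, S1pr1, Zfp36l2, Synj2, Ankrd12, Angpt2, Birc5 and Cdc42bpa. They were chosen by name, as network genes that the study names with its RNA-seq results. The study took its network targets from genes that were differentially expressed in other datasets. Its RNA-seq results then pick genes out by their change, so measured values lie behind the list. A transcript belonged to a gene when its gene name, without the endings for predicted or mapped genes and ignoring case, equalled the symbol. By this rule 7 of the 8 genes were found, with 31 transcripts, among 43391 transcripts in 16678 loci, of which 12576 are named genes. S1pr1 was not found by its symbol and is described through its older symbol Edg1, which carried 1 further transcript.

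The study sequenced RNA from femurs of female wild-type Wistar rats after bilateral ovariectomy (OVX), which removes the ovarian source of estrogen and leads to bone loss, or after a sham operation (SHAM). The labels give 1 OVX and 1 SHAM sample, both at 16 week and both of total RNA, and add Old_2 to the OVX sample and Young_1 to the SHAM sample, so age cannot be told apart from the operation if those words describe the animals. The methods of the study differ from the labels, with several sequenced rats per group and another number of weeks of feeding, so it is not known which rats the assemblies come from or what the week in the labels counts. The material was femur tissue as a whole, which can hold bone, marrow and attached muscle. The files used here hold the structure of assembled transcripts and no count, coverage or expression value, so the depth is unknown and no gene could be compared between OVX and SHAM.

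In a competing endogenous RNA network, circular RNAs and messenger RNAs carry sites for the same microRNAs, and a circular RNA that binds a microRNA can relieve the messenger RNAs which that microRNA represses. The transcript structure matters there because microRNA sites lie mostly in the last exon, so an isoform that ends elsewhere can lack them. The 8 targets have different roles. Cd44 is a cell surface receptor for hyaluronan, S1pr1 a G protein-coupled receptor for sphingosine-1-phosphate, and Angpt2 a secreted ligand of the endothelial receptor TIE2. Zfp36l2 is an RNA-binding protein that promotes decay of messenger RNAs with AU-rich elements, Ankrd12 is an ankyrin repeat protein that binds nuclear receptor coactivators, Synj2 is an inositol 5-phosphatase of membrane traffic, Birc5 (survivin) is a cell division protein of the inhibitor of apoptosis family, and Cdc42bpa (MRCK alpha) is a kinase that acts below the small GTPase CDC42 on actomyosin.

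The 8 genes fell into 2 groups of 4. Cd44, S1pr1, Zfp36l2 and Birc5 each had a transcript model that covered a complete reference intron chain and was recorded in both assemblies behind the annotation. Cdc42bpa, Ankrd12, Synj2 and Angpt2 each had models in both assemblies, but no model of theirs was recorded in both. This was common, since 5738 of the 12569 other named genes also had models in both assemblies but none recorded in both. The assemblies are called first and second here after the order in which transcripts are numbered, and neither could be assigned to OVX or SHAM. Models of 3 kinds occurred among the genes. A full-chain model (class =) has every intron of a reference transcript, a contained model (class c) is a fragment that lies within a reference transcript, and a new-junction model (class j) shares at least 1 splice junction with a reference transcript but differs from it elsewhere.

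Of the 31 transcripts of the 7 genes found by symbol, 21 were contained fragments, 5 were full-chain models and 5 were new-junction models. The last count is of class j, and the Angpt2 model in it held no intron that the contained fragments of Angpt2 lacked. The first assembly alone gave 15, the second alone gave 12, and 4 (12.9%) were recorded in both, beside 12.2% of the transcripts of all other named genes. All 4 transcripts recorded in both assemblies were full-chain models, whereas none of the 21 contained fragments was recorded in both. The share of full-chain models among such transcripts of all named genes is not given here, so the first count has no background. Contained fragments were seldom recorded in both elsewhere too, at 6.2% in the other named genes that had only such fragments. The number of transcripts per gene ranged from 1 for Zfp36l2 to 9 for Cdc42bpa.

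**Figure D1:**
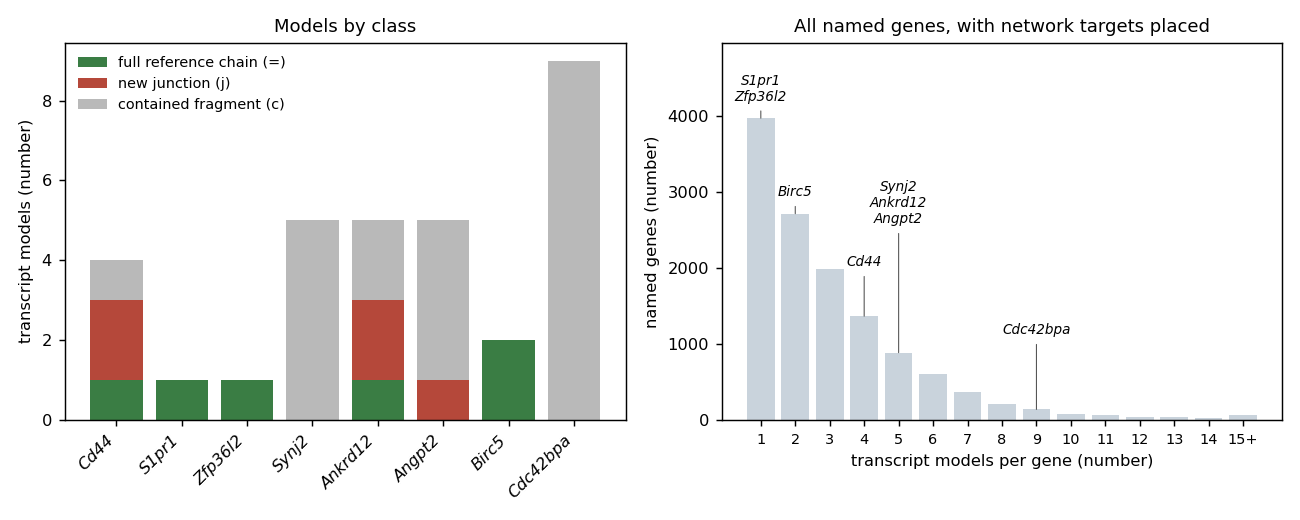
Left, number of transcript models of each network target gene, stacked by class; right, number of all named genes with a given number of transcript models, the last bar holding 15 or more, with the targets written above their bars. Birc5, S1pr1 and Zfp36l2 have only full-chain models, while the 9 models of Cdc42bpa and the 5 of Synj2 are all contained fragments.

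Cd44, the hyaluronan receptor that cells of the marrow and osteoclasts use for adhesion, had 4 transcripts at chromosome 3, positions 88235364 to 88324151 on the minus strand. The full-chain model was recorded in both assemblies, with 9 exons, 4240 bp of exon sequence and a last exon of 3212 bp. After its first 5 exons it spliced over an intron of 24269 bp (88252971 to 88277239). The 3 other models all had exons inside that intron. CD44 is known for this arrangement: the standard form skips a block of variable exons in the middle of the gene, and larger forms include some of them.

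Of these 3 models of Cd44, the first was a new-junction model of the second assembly with 6 exons and 860 bp. It began at the same base as the full-chain model, shared its first 5 exons, and then spliced over 10869 bp to an exon of 52 bp at 88266319 to 88266370. Another new-junction model, of the first assembly, had 3 exons of 433, 126 and 114 bp between 88266828 and 88273389, and both of its introns were found in no other model. The contained model, of the second assembly, had 3 exons of 116, 102 and 24 bp between 88256685 and 88262164. All 3 were placed against the same reference transcript, which differs from the one that the full-chain model matched. No model joined these middle exons to the last 4 exons of the gene. In all, 13 introns were found for Cd44, of which 8 were in both assemblies, and these 8 are the introns of the full-chain model. The other 5 introns lie in or lead into the middle block, 2 in the first assembly and 3 in the second, and none of them was found in both.

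S1pr1, the receptor that guides lymphocytes and osteoclast precursors along sphingosine-1-phosphate, appeared only under the name Edg1, at chromosome 2, positions 196132506 to 196137139 on the minus strand. Its single model was full-chain and was recorded in both assemblies. It had an exon of 344 bp, an intron of 1637 bp and an exon of 2653 bp. With 2997 bp of exon sequence in a span of 4.634 kb, most of the locus was exon.

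Zfp36l2 had the same simple form, with 1 full-chain model in both assemblies at chromosome 6, positions 10199157 to 10202859 on the plus strand. Its exons of 286 and 2923 bp were split by an intron of 494 bp, the only intron of the gene. A model of another gene, named rCG_62073, ran on the opposite strand at the 3′ end of Zfp36l2. That model had 1 exon of 217 bp, was recorded in both assemblies, and overlapped the last exon of Zfp36l2 by 132 bp. The library kit's strand setting is not given in the sources used here, so reads in this overlap could belong to either gene.

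Birc5, which acts at centromeres in dividing cells, had 2 transcripts at chromosome 10, positions 101633359 to 101641356 on the plus strand. Both were full-chain models, and both were recorded in both assemblies, with the same first and last base. One had 4 exons of 196, 110, 118 and 552 bp, 976 bp in all. The other kept the first 2 exons and ended in a single exon of 3658 bp, which ran through the 2988 bp intron before the last exon of the 4-exon model and brought its length to 3964 bp. Each of the models matched the introns of a reference transcript of its own. That match does not compare the outer ends of the last exon, so whether the reference holds the whole long exon was not checked. The 3 introns of Birc5 were all found in both assemblies, which follows from both models being recorded in both.

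**Figure D2:**
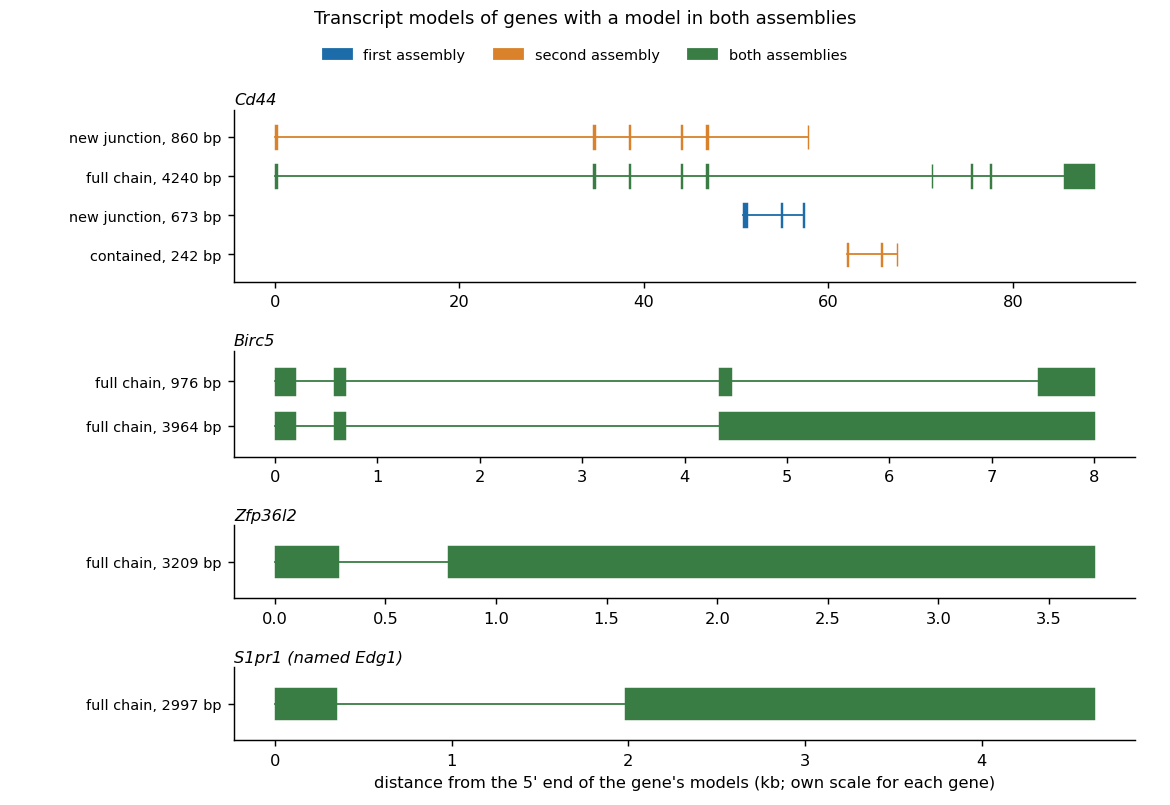
Transcript models of Cd44, Birc5, Zfp36l2 and S1pr1 drawn to scale from the 5′ end of each gene (horizontal axis in kb, a separate scale for each gene), with exons as boxes, introns as lines, and color for the assembly. In Cd44 the 3 models in 1 assembly each have exons inside the 24269 bp intron of the 4240 bp model, and in the other 3 genes every model is in both assemblies.

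Each of these 4 genes had 1 full-chain start that was found in both assemblies, so the DNA just before their annotated starts is shown. The stretches are the 120 bases upstream of the start in the RefSeq promoter table of build GRCr8, 5′ to 3′ on the strand of the gene. It was not checked that the starts of the assembled models are the same as those starts. Capitals mark matches on either strand to 4 motifs. The first was the TATA box, searched as TATAAA. The second was the CCAAT box, searched by those letters. The GC box was searched as GGGCGG. The cell cycle homology region, known from promoters of genes that act late in the cell cycle, was searched as TTTGAA.
Birc5, chr10:103572026-103572145, plus strand: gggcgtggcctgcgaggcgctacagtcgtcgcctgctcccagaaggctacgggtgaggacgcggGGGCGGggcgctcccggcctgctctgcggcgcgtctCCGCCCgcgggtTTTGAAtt
Cd44, chr3:109699425-109699544, minus strand: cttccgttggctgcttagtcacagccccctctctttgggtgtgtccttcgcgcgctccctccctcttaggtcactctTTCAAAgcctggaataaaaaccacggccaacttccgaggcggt
S1pr1, chr2:206314071-206314190, minus strand: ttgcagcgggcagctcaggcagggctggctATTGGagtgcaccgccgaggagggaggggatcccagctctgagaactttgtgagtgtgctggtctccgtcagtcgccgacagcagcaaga
Zfp36l2, chr6:16242502-16242621, plus strand: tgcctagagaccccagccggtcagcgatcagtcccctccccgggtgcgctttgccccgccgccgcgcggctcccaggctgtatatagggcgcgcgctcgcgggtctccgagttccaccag

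Birc5 had a match to TTTGAA that began 8 bases before its start, and GGGCGG matches that began 56 and 20 bases before it, the latter on the opposite strand. Over the 250 bases searched, Birc5 also had another GGGCGG at 180 and a CCAAT at 213 bases before the start. Cd44 had TTTGAA on the opposite strand at 43 bases, and S1pr1 had CCAAT on the opposite strand at 90 bases. Zfp36l2 had no match in the printed stretch but 5 matches to GGGCGG and 2 to CCAAT farther upstream. None of the 7 genes with an entry had the exact letters TATAAA, and variants of this motif were not searched. Over 33469 rat promoters of the same length, 12.9% held the TATA box, 34.0% the CCAAT box, 30.5% the GC box and 16.2% the cell cycle element. These matches are a description of the letters and say nothing of binding. Angpt2 had no entry.

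Cdc42bpa, the kinase, had the most transcript models of the network targets described here. Its 9 transcripts at chromosome 13, positions 91277003 to 91448505 on the plus strand, were all contained fragments, 3 in the first assembly and 6 in the second. The fragments of the first assembly measured 256, 1277 and 1989 bp, and those of the second measured 241, 536, 418, 1128, 496 and 873 bp. The longest held 11 exons, and so did the 1128 bp fragment. Merged over both assemblies, the fragments covered 34 exon blocks and 4925 bp, and they fell into 3 stretches that did not overlap.

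The assemblies complemented each other along Cdc42bpa. Between 1 and 40226 bp from the 5′ end only the second assembly had a model, with 3 exons. From 75943 to 171503 bp, fragments of both assemblies followed each other with overlapping ends, so that the merged exons ran through to the last exon. One fragment of the second assembly, 496 bp long, lay entirely within the 1989 bp fragment of the first. Of 31 introns, 11 were found in both assemblies, 8 in the first only and 12 in the second only, and 46.5% of the exon sequence was covered in both.

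Ankrd12, which appeared as Ankrd12_predicted, had 5 transcripts at chromosome 9, positions 102967480 to 103062384 on the minus strand. At the 5′ end of the gene, a full-chain model of the first assembly had 4 exons and 1186 bp, ending in an exon of 814 bp. A new-junction model of each assembly, 513 bp in the first and 759 bp in the second, instead spliced out of that exon after 147 bp. They used the same intron of 4113 bp (103009980 to 103014092), which occurred in no other model, so 1 junction that sets these models apart was seen in both assemblies although neither transcript was recorded in both.

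The longest model of Ankrd12 was a contained fragment of the second assembly with only 3 exons, 1 of which was 4255 bp long, making 4547 bp in all. The first assembly had no model over that exon, and just 6.98% of the 6315 bp of Ankrd12 exon sequence was covered in both assemblies. A contained fragment of 226 bp with 2 exons, from the first assembly, lay at the 3′ end. The models left 3 stretches that did not overlap, and 3 of the 7 introns were found in both assemblies.

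Synj2, the phosphatase, was found as 5 contained fragments at chromosome 1, positions 42272854 to 42304712 on the plus strand. The first assembly gave 4, of 258, 251, 217 and 999 bp, and the second gave 1, of 270 bp. The longest had 4 exons and ended in an exon of 716 bp, while the 4 others had 2 exons each. Nothing was assembled between 1898 and 20682 bp from the 5′ end of the models. The fragment of the second assembly bridged 2 fragments of the first, overlapping each at 1 end, and shared 184 bp of exon with them. None of the 7 introns was found in both assemblies.

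Angpt2, the TIE2 ligand, had the shortest longest model of the 8 genes, 502 bp. Its 5 transcripts at chromosome 16, positions 68960702 to 68983749 on the plus strand, were 4 contained fragments of 200, 235, 403 and 225 bp and 1 model of class j. The second assembly gave only the 403 bp fragment. The class j model had 2 exons, 49 and 453 bp, and its only intron was also in the 235 bp fragment, which begins at the same base. The models differed in the second exon, which ended after 131 bp in the contained fragment and ran on to 453 bp, into the next intron, in the class j model. The 225 bp fragment had a single exon. The assemblies shared 55 bp of 1330 bp of exon sequence and none of 5 introns. On the opposite strand, the span of Angpt2 lay within that of a gene model named RGD1560642_predicted, which the first assembly held with 591 bp in 4 exons and whose exons overlapped those of Angpt2 by 0 bp.

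**Figure D3:**
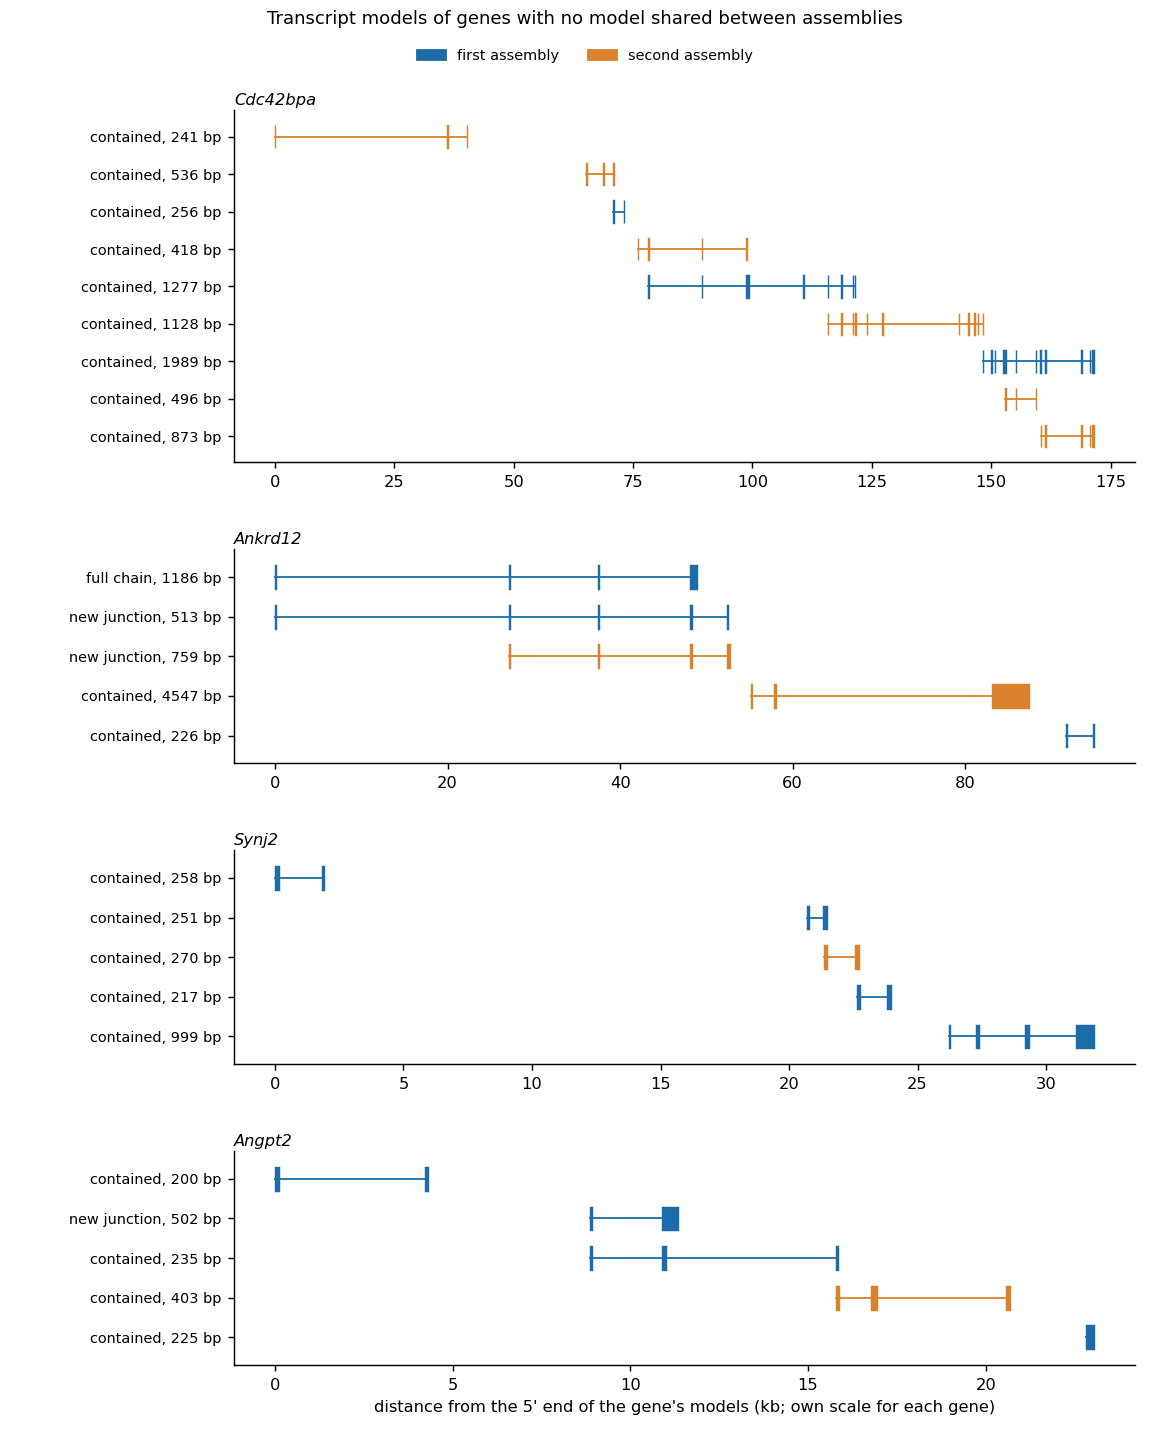
Transcript models of Cdc42bpa, Ankrd12, Synj2 and Angpt2 drawn to scale from the 5′ end of each gene (horizontal axis in kb, a separate scale for each gene), with exons as boxes, introns as lines, and color for the assembly. Each gene is broken into 3 stretches with nothing assembled between them, and no model is in both assemblies.

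The introns, each a splice junction with its first and last base, could be compared between the assemblies one by one. Over the 7 genes found by symbol, 26 of 67 introns were found in both assemblies, 21 in the first only and 20 in the second only. Zfp36l2 and Birc5 had all of their introns in both assemblies, as did S1pr1. This was fixed in advance, because every model of these genes was recorded in both and its introns then count in both. The share was 61.5% in Cd44, where the introns in both are likewise those of its shared model, 42.9% in Ankrd12 and 35.5% in Cdc42bpa. Synj2 and Angpt2 had no intron in both. The comparison group was 5738 other named genes that, like Cdc42bpa, Ankrd12, Synj2 and Angpt2, had models in both assemblies but none recorded in both. In that group 48.6% of introns were found in both, and 15.4% of the genes had no such intron. Other named genes with only contained fragments, as in Cdc42bpa and Synj2, had 37.9% of introns in both. Of those genes, however, only 59.5% had models in both assemblies. A junction missing from an assembly may have been expressed and not assembled, and this cannot be told apart without coverage.

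**Figure D4:**
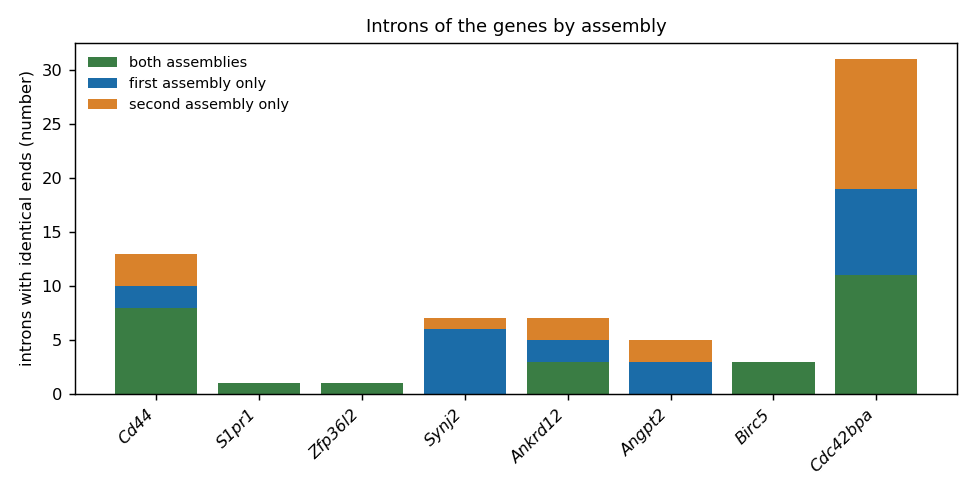
Number of introns of each network target gene, counted once for identical first and last base and stacked by the assembly that held them. All introns of S1pr1, Zfp36l2 and Birc5 and 8 of 13 in Cd44 are in both assemblies, as introns of models recorded in both. Synj2 and Angpt2, with no such model, have 0 of 7 and 0 of 5.

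Set beside the 12569 other named genes, the 7 genes had more transcripts, with a median of 5 against 2, and longer exon sequence, with a median of 3964 against 1501 bp. Their median span was 31.859 kb against 14.137 kb. The share of genes with a transcript recorded in both assemblies was 3 of 7 (42.9%) against 30.8%, and the share with a full-chain model was 4 of 7 (57.1%) against 38.6%. Only contained fragments were found for 2 of 7 (28.6%) against 27.1%. Contained fragments made up 67.7% of the transcripts against 56.1%, and new-junction models 16.1% against 25.6%. The introns found in both assemblies were 38.8% against 53.7%. S1pr1 was counted among the other named genes, as Edg1. With it added to the 7, a transcript recorded in both was found for 50% of genes, a full-chain model for 62.5% and only contained fragments for 25%. With 7 genes a share moves by a large step with each gene, and these differences were not tested.

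Gene by gene, the number of transcripts was above that of 96.3% of named genes for Cdc42bpa, 79.8% for Synj2, Ankrd12 and Angpt2 alike, 69.0% for Cd44 and 31.6% for Birc5, and Zfp36l2 had the fewest possible. The order of the longest model was different. The longest model was above that of 97.0% of named genes for Ankrd12, 96.1% for Cd44, 95.0% for Birc5, 90.8% for Zfp36l2, 88.9% for S1pr1, 75.9% for Cdc42bpa, 49.98% for Synj2 and 24.8% for Angpt2. Thus Synj2, Ankrd12 and Angpt2, with 5 transcripts each, ranged from 502 to 4547 bp in their longest model.

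**Figure D5:**
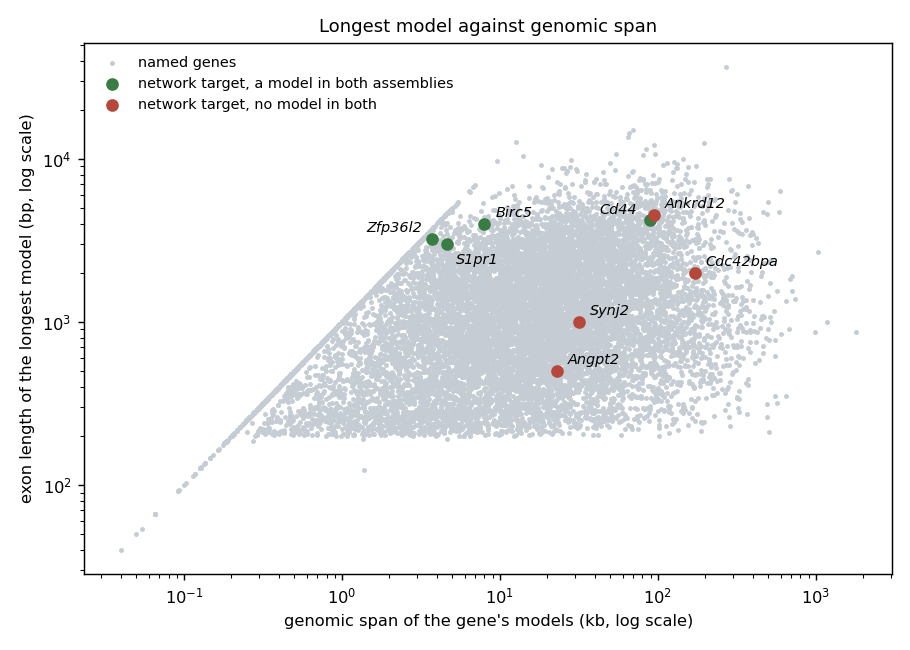
Exon length of the longest model (vertical axis in bp, log scale) against the genomic span of all models of a gene (horizontal axis in kb, log scale), with a grey point for each named gene and larger points for the network targets. Zfp36l2, with 3209 bp of exon in 3.703 kb, lies near the diagonal edge where a gene is all exon, and Angpt2 lies lowest of the 8 genes at 502 bp.

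The share of genes with a transcript recorded in both assemblies was lower in longer genes, whereas other shares moved otherwise. Among the other named genes, a transcript recorded in both assemblies was found for 34.3% of those spanning under 10 kb, 30.1% of those from 10 to under 50 kb, 26.7% of those from 50 to under 100 kb and 22.8% of those of 100 kb or more. The share of genes with some model in each assembly instead rose over these classes, from 59.5% to 92.0%, and the introns found in both assemblies showed no trend, at 49.5%, 55.7%, 54.5% and 51.7%. S1pr1, Zfp36l2 and Birc5, at 4.634, 3.703 and 7.998 kb, all fall in the shortest of these classes. Cd44, at 88.788 kb, had a shared full-chain model, and Ankrd12, at 94.905 kb, did not. The part of span and of expression level in these differences was not tested.

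Genes that work with the targets were taken from 8 lists of 67 genes, of which 53 were found, 46 by symbol and 7 by an older symbol. Models in both assemblies were found for 50 of them, a transcript recorded in both for 20, a full-chain model for 20, and only contained fragments for 13. Over all other named genes these shares were 76.5%, 30.8%, 38.6% and 27.1%. In shares of the 53 genes found, the listed genes stood at 94.3%, 37.7%, 37.7% and 24.5%, and the counts of each list below are to be read against those shares. In each list the genes found are named up to 6 in the order of the list, and those not found are named after the result was seen. A gene not found by its symbol or an older symbol may be present under another name.

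The list for Cd44 held enzymes and ligands of hyaluronan biology and the proteins that tie CD44 to actin, and 8 of 11 were found. The 3 not found were the hyaluronan synthases Has1, Has2 and Has3. The hyaluronidases Hyal1 and Hyal2 had only contained fragments, 1 and 2 of them. Vcan (named Cspg2), a proteoglycan that binds hyaluronan, had 6 transcripts, with a longest model of 5129 bp and none recorded in both assemblies. Spp1, osteopontin, a bone matrix ligand of CD44, had 2 full-chain models, both in both assemblies. Of the linkers to the cytoskeleton, Ezr (named Vil2) had 1 full-chain model of 13 exons in both assemblies, and Rdx had a full-chain model in 1 assembly.

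For S1pr1, 5 of 9 genes of sphingosine-1-phosphate were found. Of the other receptors, S1pr4 (named Edg6_predicted) had 1 full-chain model of 1 exon in both assemblies, and S1pr2 (named Edg5) had 1 full-chain model in the first assembly only. S1pr3 and S1pr5, the kinase Sphk2 and the exporter Spns2 were not found. The kinase Sphk1 had 2 new-junction models, 1 in each assembly, while the lyase Sgpl1 had 5 transcripts and the phosphatase Sgpp1 had 3, with none recorded in both.

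For Zfp36l2, 7 of 9 genes of AU-rich element binding and decay were found, and Cnot1 and Cnot7 were not. The paralogs Zfp36 and Zfp36l1 had the same form as Zfp36l2, with 1 full-chain model of 2 exons in both assemblies, of 2550 and 3120 bp. Elavl1, which stabilizes such messenger RNAs, had 1 full-chain model of 6 exons in both. The decay factor Khsrp had 1 new-junction model of 18 exons in both. The deadenylase subunits Cnot6 (named RGD1310783) and Cnot8 had 1 and 2 full-chain models, none recorded in both.

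For Synj2, 5 of 8 inositol 5-phosphatases were found, and Inpp5e, Inpp5k and Inpp5j were not. None of the 5 had a full-chain model. The paralog Synj1 had 12 transcripts, 8 of them contained, and 8 of 23 introns in both assemblies, while Synj2 had 0 of 7. Ocrl had 2 contained fragments with 0 of 7 introns in both. Inpp5b had 14 of 22 introns in both, Inppl1 had 12 of 27, and Inpp5d (SHIP1 of blood cells) had 24 of 25 and was the only one with a transcript recorded in both.

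For Ankrd12, all 6 listed genes of nuclear receptor coregulation were found, and none had a full-chain model. The paralog Ankrd11 had 6 transcripts and 8 of 10 introns in both assemblies. The coactivators Ncoa1, Ncoa2 and Ncoa3 had 8, 6 and 10 transcripts, and the histone deacetylases Hdac3 and Hdac4 had 4 and 7. Among these, only Ncoa3 had a transcript recorded in both assemblies.

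For Angpt2, 6 of 7 genes of the angiopoietin family and its receptors were found, and Angptl1 was not. The related ligands Angpt1 and Angpt4 had 4 and 3 transcripts, all contained and none recorded in both, with 1 of 6 and 0 of 6 introns in both assemblies. The receptor Tek, which encodes TIE2, had 6 contained fragments, 1 recorded in both assemblies, and 10 of 20 introns in both. The second receptor, Tie1, had a model of 23 exons and 3781 bp, and 15 of 22 introns in both. Angptl2 had a full-chain model of 5 exons in 1 assembly, and Angptl4 had 2 contained fragments, 1 of them in both.

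For Birc5, 7 of 8 genes were found, and Birc6 was not. A transcript recorded in both assemblies was found for 3 of these 7 (42.9%), beside 30.8% of all other named genes. The 3 were Aurkb, Cdca8 and Incenp, the partners of Birc5 in the chromosomal passenger complex. The kinase Aurkb had a full-chain model of 9 exons in both and 8 of 9 introns in both. Cdca8 (borealin) had 3 transcripts, each recorded in both. Incenp had a full-chain model in 1 assembly, a new-junction model recorded in both, and 17 of 18 introns in both. The inhibitors of apoptosis Birc2, Birc3 and Xiap (named Birc4) had no transcript recorded in both, with 0 of 4, 0 of 4 and 2 of 7 introns in both assemblies.

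For Cdc42bpa, all 9 genes of the list were found. The paralogs Cdc42bpb and Cdc42bpg had 12 and 10 transcripts without a full-chain model, and 20 of 32 and 4 of 21 introns in both assemblies, beside 11 of 31 for Cdc42bpa. Cdc42 itself had 2 full-chain models, each in 1 assembly. The related kinases Rock1, Rock2 and Dmpk had 11, 7 and 7 transcripts, and Dmpk alone of these 3 had a full-chain model.

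The tissue label was checked by whether marker genes had models, without levels. All 12 bone markers were found, among them Bglap (as Bglap2), Col1a1, Dmp1 and Sost, 11 of them in both assemblies. Of osteoclast markers 3 of 4 were found, of marrow myeloid markers 4 of 6 by an unambiguous name, and of skeletal muscle markers 3 of 4, the muscle genes Acta1, Ckm and Tnnt3 each with a full-chain model and a transcript recorded in both assemblies. Elane, a myeloid marker, was not among the 4 because its older symbol Ela2 also belongs to another gene, Cela2a, but a gene named Ela2_predicted had 1 full-chain model in both assemblies on chromosome 7, where Elane lies. None of 4 liver markers was found by name. Calcr, Ltf and Myh4 of the other marker lists were not found either, so this does not show that liver transcripts are absent. Which of these cells gave the transcripts of the 8 targets was not tested.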

How the data were processed

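Total RNA of femur tissue was made into libraries with a SMARTER mRNA-Seq kit. The submitters' notes name FastQC, HISAT2, StringTie, featureCounts and the build rn4, without versions. The authors deposited transcript structures (exon positions, class codes and the number of assemblies holding each transcript, as gffcompare writes them) and a list of 1507 new genes, and no values per sample. It was not checked that the sequences are rn4, and positions are given as the files have them, 1-based. Chromosome numbers are those where the named genes of each sequence lie in GRCr8.

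Transcripts were summarised per gene with Python 3.11.15 and drawn with matplotlib 3.10.9. The assembly of a transcript was read from the numbering, which runs through the strands of each sequence once for each assembly. A named gene is a locus with a gene name that is not a new gene. Older symbols came from RefSeq names of GRCr8. Bases before each start (250 searched, 120 printed) came from the RefSeq promoter table. Motifs were chosen after sequences had been seen.

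The genes and lists were chosen with earlier results of these data known. With 1 labelled sample per group and no values, nothing was tested. The result of 1 listed gene is not reported here.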

Additional observations from a re-analysis of the deposited data

How the results depend on the processing

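Accepting older symbols raised the genes found from 7 to 8, by S1pr1, and counting whole loci left 31 transcripts. Without contained fragments 10 transcripts remained, and 17 had at least 500 bp of exon. Counting a gene when each assembly held some transcript of it, in place of the same transcript, raised 3 genes to 7. Full-chain models remained for 4 genes when 2 or more exons were asked for, and for 3 when the model had to be in both assemblies, which leaves out Ankrd12. Introns in both assemblies numbered 27 when 1 matching end was enough and 26 within 10 bp. Among genes with 2 or more exons, the share with fewer transcripts was 66.7% for Cd44, 78.4% for Synj2, Ankrd12 and Angpt2, 26.8% for Birc5, 96.0% for Cdc42bpa and 0 for Zfp36l2.

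The planned comparison with the coding length was not run, since no protein sequences were used here, nor was that of expression between OVX and SHAM. No paired analysis was possible because no result comes from a test. Depth is unknown, so a missing gene, model or junction is not shown to be absent from the tissue. The assemblies could not be matched to the samples, and why models end where they do was not tested.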

Other observations

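Further targets of the same network were looked up by name. Mfap5, a microfibril protein of the extracellular matrix, had 2 contained fragments, 1 in each assembly, with 6 of 8 introns in both. Camk2a, a calcium and calmodulin dependent kinase, had 3 transcripts, 2 of them full-chain and each in 1 assembly, with a longest model of 4034 bp and 2 of 6 introns in both. Rgs4, which speeds the inactivation of G proteins, had 2 contained fragments and 1 of 4 introns in both. Lep, the hormone leptin, was not found. None of Mfap5, Camk2a and Rgs4 had a transcript recorded in both assemblies, which only 30.8% of all other named genes had.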
